A study of Mus musculus with 12 samples.

Results

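Eph receptors are cell surface tyrosine kinases, and the 10 described here were chosen by name as Epha1, Epha2, Epha3, Epha4, Epha5, Epha7, Ephb1, Ephb2, Ephb3 and Ephb4. Of these, 9 had at least 1 probe set (a group of short probes read as 1 value) that names a single gene, with 24 such probe sets among the 34945 of the array. No probe set of Ephb2 was named in the annotation used, and that gene was not analysed here. Messenger RNA was measured on Affymetrix mouse arrays in neural tubes micro-dissected from embryos of ICR (CD-1) mice, an outbred stock, at gestation day 8.5, 9.0 and 9.5 (GD8.5, GD9.0 and GD9.5), with no treatment and no engineered allele named in the labels. The study set out to find messenger RNAs with constant and with changing levels across these stages, each of which has 4 labelled biological replicates, and whether a replicate is 1 embryo, a litter or a pool is not given in the labels.

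Eph receptors bind ephrins, ligands that are themselves held on the membrane of the neighbouring cell, so signalling needs cell contact and can run into both cells. EphA receptors mostly bind the lipid-anchored ephrin-A ligands and EphB receptors the transmembrane ephrin-B ligands, and Epha4 binds ligands of both classes. In the neural tube the family is known for sorting cells at hindbrain segment boundaries, for fusion of the neural folds and for later axon guidance. In pooled tissue, more cells that express a gene and more RNA per cell cannot be told apart.

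The promoter sequences of the 3 receptors with the clearest stage patterns are shown, because Epha3 and Epha5 both had their larger rise in the second half-day interval and Epha7 peaked at GD9.0. They run 5′ to 3′ from RefSeq (GRCm38.p6), from upstream of an annotated start to just after it, and capitals mark matches on either strand to 4 motifs: the TATA box TATAAA, the CCAAT box, the GC box GGGCGG, and the E box CAGCTG. The array gives no value that depends on these letters.
Epha3, chr16:63864126-63864425, minus strand: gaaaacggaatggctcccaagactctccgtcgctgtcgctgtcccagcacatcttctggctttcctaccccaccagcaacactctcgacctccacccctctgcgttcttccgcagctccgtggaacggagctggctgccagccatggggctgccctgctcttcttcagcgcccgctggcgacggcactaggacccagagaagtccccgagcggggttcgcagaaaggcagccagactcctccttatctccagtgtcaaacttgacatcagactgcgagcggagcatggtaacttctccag
Epha5, chr5:84417333-84417632, minus strand: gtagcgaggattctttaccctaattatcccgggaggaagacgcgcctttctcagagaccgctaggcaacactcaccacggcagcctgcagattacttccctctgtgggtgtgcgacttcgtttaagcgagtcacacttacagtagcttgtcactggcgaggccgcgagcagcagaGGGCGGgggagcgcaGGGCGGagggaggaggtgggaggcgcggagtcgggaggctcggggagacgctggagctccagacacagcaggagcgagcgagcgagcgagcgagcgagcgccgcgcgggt
Epha7, chr4:28812881-28813180, plus strand: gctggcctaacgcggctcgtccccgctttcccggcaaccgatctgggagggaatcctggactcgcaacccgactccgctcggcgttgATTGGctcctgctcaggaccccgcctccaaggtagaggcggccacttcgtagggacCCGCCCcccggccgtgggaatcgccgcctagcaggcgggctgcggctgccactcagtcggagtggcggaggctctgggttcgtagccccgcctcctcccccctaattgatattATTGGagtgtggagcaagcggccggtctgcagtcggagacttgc
The Epha3 window held none of the 4 motifs, the Epha5 window held the GC box at 2 places, and the Epha7 window held the CCAAT box at 2 places and the GC box at 1. Over the first window listed for each of the 10 receptors, the GC box was present in 7, the CCAAT box in 5, the E box in 1 (Ephb3) and the TATA box in 0. Among all 32851 promoter windows, the shares were 35.7% for the GC box, 37.4% for the CCAAT box, 16.3% for the E box and 13.6% for the TATA box. The windows of Epha5, Epha7 and Epha3 held 30, 28 and 18 CpG dinucleotides, against a median of 7 over all windows.

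GD8.5 replicates 1 and 2 stood apart, since their values were deposited as linear intensities with medians of 92.2 and 98.3, while medians of the other 10, all log2 values, lay between 1.75 and 1.82. Stages were compared over those 10, so GD8.5 has 2 arrays (replicates 3 and 4) and each later stage 4, and precision is limited by how few they are. A level of 1.41, under which 95% of 43 olfactory receptor probe sets lay, served as background. Levels are log2 values, and those of different probe sets are not comparable with each other, so each receptor is followed only across stages. Neural progenitor markers, 12 of 12, lay above background at each stage. At GD8.5 so did 12 of 12 cardiac muscle markers and 12 of 12 endoderm and yolk sac markers, so this cannot single out the labelled tissue. Other tissues were also present, and their marker levels moved with stage. The summed linear level of 12 cardiac muscle markers was 1435 to 1496 at GD8.5, 171 to 183 at GD9.0 and 33.8 to 35.8 at GD9.5. That of 12 endoderm and yolk sac markers was 1928 to 1954, then 251 to 272, then 35.0 to 38.6. The control probe sets for 18S ribosomal RNA ranged from 9.82 to 9.83, 8.65 to 9.05 and 10.2 to 10.4 at the 3 stages, and the actin controls read higher at the 3′ than at the 5′ end by 0.699 to 0.721, 0.527 to 0.587 and 0.902 to 0.965. The part of these shifts in the receptor results was not tested.

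From GD8.5 to GD9.0, Epha3 and Epha7 rose, and no Eph receptor passed as lower by limma at an adjusted p under 0.05. Of the 24 probe sets 5 were higher, where 5.42% of all probe sets were, and 0 were lower by limma, where 4.66% were, with 4 lower at an unadjusted p under 0.05. Of the 9 receptors, by the brightest probe set of each, 2 were higher (5.97% of all genes) and 0 lower (6.02% of all genes). From GD9.0 to GD9.5, Epha2, Epha3, Epha5 and Ephb4 rose, and Epha4 and Epha7 fell. In that interval 9 of the 24 probe sets were higher (11.2% of all) and 6 lower (9.24% of all), which made 4 receptors higher (13.3% of genes) and 2 lower (9.44% of genes). Over the full day 10 probe sets were higher (12.7% of all) and 2 lower (10.5% of all). By brightest probe sets Epha3, Epha5 and Epha7 were then higher (14.7% of genes) and Epha4 was lower (12.2% of genes).

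Among the 10 log2 arrays, some receptors had no overlap between stages yet did not pass the test. In the first interval the arrays of 5 of 9 receptors (Epha1, Epha2, Ephb1, Ephb3 and Ephb4) lay wholly lower at GD9.0, as did 16.9% of all genes, and those of Epha3 and Epha7 wholly higher (17.6% of genes). GD8.5 replicates 1 and 2, left out here, can be compared by percentile within each array. Ephb1 stood at 72.5 and 74.9 on them, above the 66.1 to 67.6 of GD9.0. Epha1 (19.9 and 43.8, against 29.2 to 39.5) and Epha2 (37.6 and 55.1, against 40.6 to 52.3) lay on both sides. Ephb3 (66.9 and 68.6, against 71.5 to 72.7) and Ephb4 (60.2 and 40.9, against 61.7 to 63.9) lay below GD9.0. In the second, Epha3 and Epha5 lay wholly higher (15.1% of genes) and Epha4 and Epha7 wholly lower (11.9% of genes). Over the full day 3 receptors lay wholly higher (23.2% of genes) and 2, Epha4 and Ephb3, wholly lower (22.7% of genes). The second change exceeded the first in 5 of the 24 probe sets (5.02% of all) and lay below it in 3 (4.22% of all), and by brightest probe sets in 4 receptors (6.37% of genes) and 1 receptor (3.90% of genes). The median log2 change over the 9 brightest probe sets was -0.16 in the first interval and 0.16 in the second, beside -0.0019 and -0.0077 over 18193 genes. Both intervals and the full day share arrays with each other, so their changes are not independent.

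**Figure D1:**
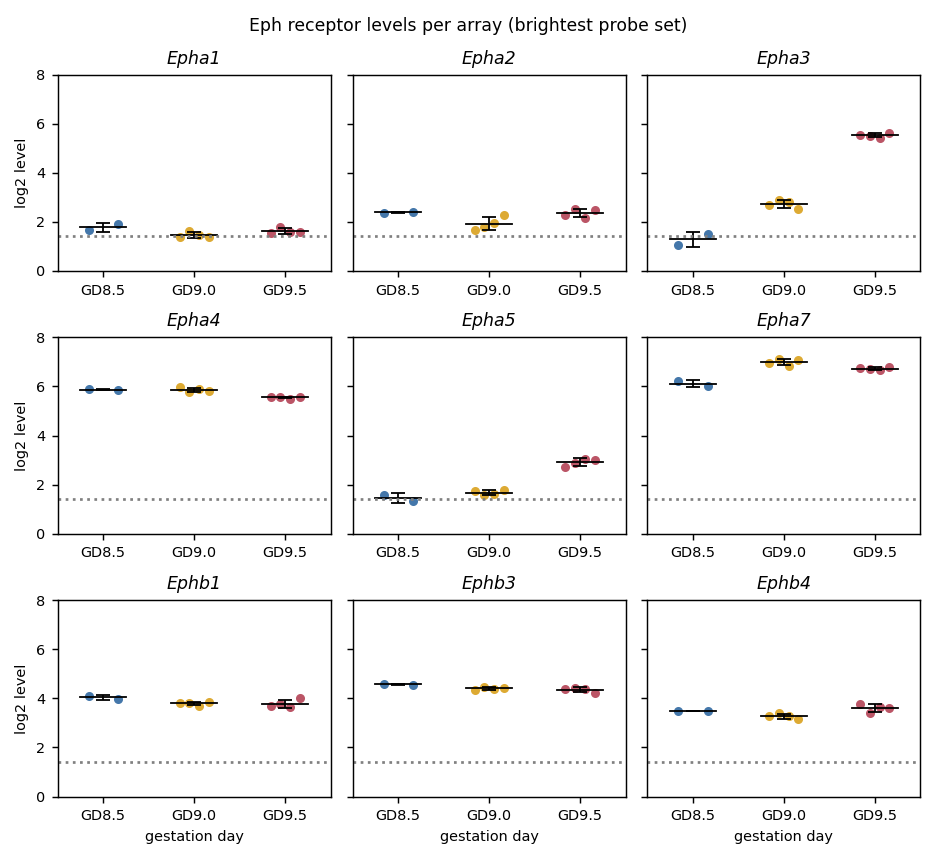
Log2 level of the brightest probe set of each Eph receptor on each array (points), with the stage mean (line) and SD (bar), n = 2, 4 and 4 arrays. The dotted line is the background level of 1.41, and Epha3 leaves it over the day to reach 5.42 to 5.63 at GD9.5.

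Epha3, a receptor for ephrin-A ligands known from axon guidance, had the widest range of stage means of the 9 receptors, 4.24 on the log2 scale. Its brightest probe set (1455426_at) read 1.06 and 1.50 at GD8.5, 2.68, 2.88, 2.79 and 2.51 at GD9.0, and 5.55, 5.49, 5.42 and 5.63 at GD9.5. The stages did not overlap, and the GD8.5 mean of 1.28 lay under the background. Against the background level, Epha3 was at least 2.48-fold higher at GD9.0 and at least 17.3-fold higher at GD9.5 than at GD8.5. From GD9.0 to GD9.5 it rose by 2.81 ± 0.10 (SE, log2 change, adjusted p = 1.3e-08), and the fitted change in the first interval was 1.43 ± 0.13 (adjusted p = 1.8e-05). The second fitted change exceeded the first by 1.38 ± 0.19 (adjusted p = 0.0012). With all 12 arrays that difference was 1.15 and lost its call (adjusted p = 0.10), while both intervals kept theirs. Since the GD8.5 mean lay under the background, the first change may be larger than fitted and the difference smaller.

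The other Epha3 probe sets gave smaller changes. Probe set 1425575_at went from a mean of 1.01 ± 0.27 (SD, n = 2) to 1.79 ± 0.25 (n = 4) and 3.90 ± 0.36 (n = 4), and rose in both intervals. Its GD8.5 mean lay under the background, so the first rise is at least 1.30-fold (fitted log2 change 0.78 ± 0.22 SE), and the second was 2.11 ± 0.18. Its call in the first interval was lost when any of GD8.5 replicates 3 and 4 or GD9.0 replicates 2, 3 and 4 was left out, at changes of 0.59 to 0.97 over all arrays left out. Probe set 1425574_at went from 0.92 to 1.12 and 1.55 and passed in the second interval. Its first 2 means lay under the background, so that rise is at least 1.10-fold (fitted log2 change 0.43 ± 0.07). Probe set 1426057_a_at stayed under the background at means of 0.97, 0.93 and 0.95 and passed in neither interval.

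Epha5, a receptor expressed in forebrain and later involved in mapping of axons, was near the background until GD9.0. Its brightest probe set (1435286_at) read 1.59 and 1.32 at GD8.5, 1.74, 1.56, 1.62 and 1.76 at GD9.0, and 2.73, 2.86, 3.05 and 3.02 at GD9.5. The first 2 stages overlapped, and every GD9.5 array lay above every earlier array. Epha5 rose in the second interval by 1.25 ± 0.09 (SE, log2 change, adjusted p = 2.6e-06), after a change of 0.22 ± 0.11 that did not pass (adjusted p = 0.28) and ran from 0.086 to 0.35 with single arrays left out. The second change was larger than the first by 1.03 ± 0.17 (adjusted p = 0.0030). Probe sets 1437920_at and 1444690_at also rose in the second interval, both from GD9.0 means under the background, by at least 1.34-fold (fitted log2 change 0.61 ± 0.11) and at least 1.21-fold (0.37 ± 0.09). The call of 1444690_at was lost with all 12 arrays (0.50, adjusted p = 0.088), while 1420557_at, under the background throughout, changed by 0.14 ± 0.10.

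The summed linear level of 12 early neuron markers, like the levels of Epha3 and Epha5, rose more in the second interval than in the first. That sum was 169 to 182 at GD8.5, 186 to 199 at GD9.0 and 649 to 684 at GD9.5. By limma 7 of the 12 were higher and 2 lower in the first interval, and 11 were higher and 0 lower in the second. Over all genes 5.97% were higher and 6.02% lower in the first, and 13.3% and 9.44% in the second. At GD8.5, Dcx, Nhlh1, Neurod1 and Nhlh2 of this list lay under the background, and at GD9.5 none did. Neural progenitor markers rose as well, from a summed level of 986 to 1010 through 1540 to 1653 to 2520 to 2648, with 9 of 12 higher in the first interval and 11 in the second. The summed level of 8 primitive erythroid markers was also higher at each later stage (2182 to 2215, 6459 to 6858 and 10210 to 10760). That of 12 head mesenchyme and paraxial mesoderm markers was too (391 to 396, 591 to 629 and 705 to 756), though most of these genes did not rise. Of them 2 were higher and 6 lower in the first interval, and 2 were higher and 4 lower in the second. The part of these shifts in the rise of the receptors was not tested.

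Epha7 was the receptor with a peak at GD9.0. It binds ephrin-A5 and is known in mouse for its part in fusion of the neural folds, where shorter forms without the kinase domain are made beside the full receptor. Its brightest probe set (1451991_at) read 6.23 and 6.01 at GD8.5, 6.96, 7.11, 6.82 and 7.09 at GD9.0, and 6.76, 6.69, 6.68 and 6.79 at GD9.5. All GD9.0 arrays were above the arrays of both other stages. Epha7 rose by 0.88 ± 0.09 (SE, log2 change, adjusted p = 9.5e-05) and then fell by 0.27 (-0.27 ± 0.08, adjusted p = 0.030). The second change lay below the first by 1.14 (-1.14 ± 0.14, adjusted p = 0.00057). The fall of this probe set is the weaker of the results, since its call was lost without any 1 of GD9.0 replicates 1, 2 and 4 or GD9.5 replicates 1, 2 and 3, with changes of -0.33 to -0.23 over all arrays left out, and with all 12 arrays (-0.27, adjusted p = 0.27).

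Of the 4 Epha7 probe sets 3 rose in the first interval, and in the second 3 fell and 1 rose. Probe set 1443485_at went from 4.76 ± 0.13 (SD, n = 2) to 5.36 ± 0.06 (n = 4) and 5.12 ± 0.05 (n = 4), a rise of 0.59 ± 0.08 SE followed by a fall (-0.24 ± 0.06) that lost its call with all 12 arrays (-0.29, adjusted p = 0.22). Probe set 1427528_a_at went from 2.55 ± 0.22 to 3.73 ± 0.24 and 3.15 ± 0.03, with changes of 1.18 ± 0.14 and -0.58 ± 0.11 (adjusted p = 0.00016 and 0.0031). Its fall was called with all 12 arrays too (-0.58, adjusted p = 0.046). Probe set 1452380_at changed by 0.20 ± 0.07 in the first interval, which did not pass (adjusted p = 0.13), and rose in the second, by 0.23 ± 0.06 (adjusted p = 0.021), from means of 1.43 ± 0.06 and 1.63 ± 0.09 to 1.86 ± 0.05, all close to the background of 1.41. That rise was lost without GD9.0 replicate 4 or GD9.5 replicates 2 or 4, at changes of 0.19 to 0.26 over all arrays left out, and with all 12 arrays (0.27, adjusted p = 0.093). Over the full day all 4 were higher, by 0.35 to 0.61, although the brightest lost that call with all 12 arrays (0.36, adjusted p = 0.066) and 1427528_a_at did too (0.27, adjusted p = 0.26). Without GD8.5 replicate 3 the full-day calls of 1443485_at (0.26, adjusted p = 0.089) and 1427528_a_at (0.44, adjusted p = 0.11) were lost. Which transcript form each probe set reads was not analysed here.

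**Figure D2:**
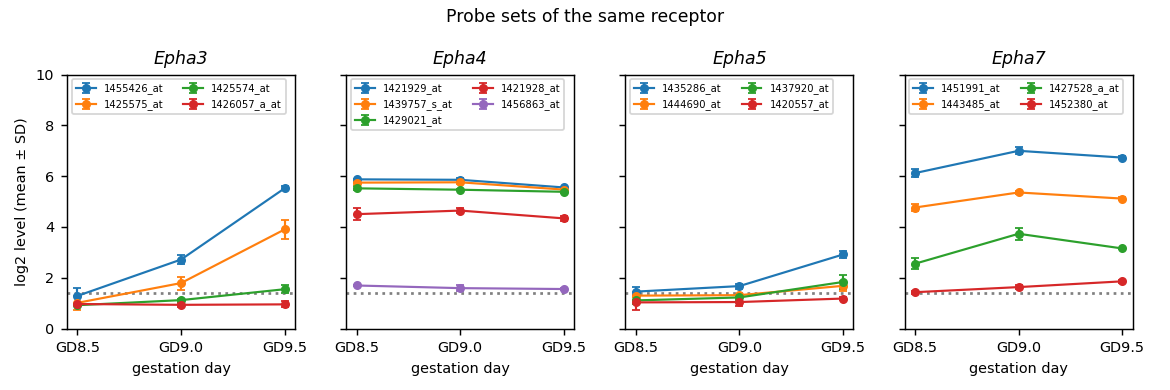
Stage means and SD of every single-gene probe set of Epha3, Epha4, Epha5 and Epha7 on the log2 scale, with the background as a dotted line. The 3 brighter Epha7 probe sets peak at GD9.0, and the fourth, from 1.43 to 1.86, does not.

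Epha4, which marks hindbrain segments 3 and 5 and binds ephrins of both classes, was level and then slightly lower. Its brightest probe set (1421929_at) read 5.89 and 5.86 at GD8.5, 5.97, 5.77, 5.89 and 5.80 at GD9.0, and 5.58, 5.57, 5.51 and 5.56 at GD9.5. GD8.5 and GD9.0 overlapped, and all GD9.5 arrays lay below both. Epha4 fell in the second interval by 0.30 (-0.30 ± 0.06 SE, log2 change, adjusted p = 0.0030), after a change of -0.02 with a 95% interval of ± 0.16. Its full-day change of -0.32 ± 0.07 (adjusted p = 0.0063) lost its call without GD8.5 replicate 3. Probe sets 1439757_s_at (-0.29 ± 0.06) and 1421928_at (-0.31 ± 0.08) fell as well. Probe set 1429021_at, at 5.52, 5.47 and 5.38, changed by -0.08 ± 0.05 (adjusted p = 0.32), and 1456863_at, at 1.69, 1.59 and 1.56, by -0.03 ± 0.06. The call of 1421928_at was lost without GD9.0 replicate 2 or GD9.5 replicates 3 or 4, at changes of -0.35 to -0.27 over all arrays left out.

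Epha2, a receptor of epithelia and of the early embryo, was lowest at GD9.0. Its single probe set (1421151_a_at) read 2.38 and 2.40 at GD8.5, 1.67, 1.80, 1.95 and 2.27 at GD9.0, and 2.29, 2.54, 2.17 and 2.46 at GD9.5. The GD9.0 arrays lay below both GD8.5 arrays and overlapped GD9.5. The first change of -0.47 ± 0.15 (SE, log2) did not pass (adjusted p = 0.073), though it did without GD9.0 replicate 4 (adjusted p = 0.011) and with an intensity trend and robust spread (adjusted p = 0.035). Epha2 rose in the second interval by 0.45 ± 0.12 (adjusted p = 0.021). That rise was lost without GD9.0 replicates 1 or 2 or GD9.5 replicates 2 or 4, at changes of 0.36 to 0.56 over all arrays left out, and with all 12 arrays (0.46, adjusted p = 0.24). The intervals differed by 0.91 ± 0.23 (adjusted p = 0.027), a call lost with 12 arrays (0.75, adjusted p = 0.32) and without either GD8.5 array or GD9.0 replicates 1, 2 or 3 (0.75 to 1.15 over all arrays left out).

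Epha1, another epithelial receptor, stayed near the background. Its brightest probe set (1422917_at) read 1.66 and 1.91 at GD8.5, 1.40, 1.64, 1.48 and 1.38 at GD9.0, and 1.54, 1.79, 1.60 and 1.60 at GD9.5. Every GD9.0 array lay below both GD8.5 arrays, yet the change of -0.31 ± 0.10 (SE, log2) did not pass (adjusted p = 0.087), except without GD9.0 replicate 2 (adjusted p = 0.047). It ran from -0.44 to -0.18 with single arrays left out. The other Epha1 probe sets had stage means from 1.01 to 1.54, and none of the 3 passed in any interval. Surface ectoderm markers, among them the keratins Krt8 and Krt18, had a summed linear level of 973 to 984 at GD8.5, 502 to 555 at GD9.0 and 284 to 305 at GD9.5. Of these 12 markers 1 was higher and 9 lower in the first interval, and 0 were higher and 10 lower in the second. The shares of all genes were 5.97% and 6.02%, then 13.3% and 9.44%. The part of these markers in the Epha1 and Epha2 values was not tested.

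Among the EphB receptors, Ephb4 alone passed the test in an interval. Ephb4 is the partner of ephrin-B2 in the separation of veins from arteries. Its probe set (1449845_a_at) read 3.50 and 3.49 at GD8.5, 3.26, 3.39, 3.29 and 3.15 at GD9.0, and 3.76, 3.39, 3.64 and 3.63 at GD9.5. GD9.0 replicate 2 and GD9.5 replicate 2 both read 3.39, so the stages met there, and the rise was 0.33 ± 0.08 (SE, log2 change, adjusted p = 0.013). It kept its call whichever of the 10 arrays was left out (0.28 to 0.40), and lost it with all 12 arrays (0.28, adjusted p = 0.76). The summed linear level of 12 endothelial markers was 152 to 155, 139 to 152 and 134 to 138 at the 3 stages. Of them 2 were higher and 3 lower in the first interval. In the second 1 was higher (Cldn5, 0.44 ± 0.10) and 4 were lower. The shares of all genes were 5.97% and 6.02%, then 13.3% and 9.44%. The part of these markers in the Ephb4 values was not tested.

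Ephb1, expressed in ventral retina and neural tissue later in development, read 4.11 and 3.97 at GD8.5, 3.82, 3.81, 3.70 and 3.85 at GD9.0, and 3.67, 3.76, 3.66 and 4.01 at GD9.5. The GD9.0 arrays lay below both GD8.5 arrays, but the change of -0.25 ± 0.10 (SE, log2) did not pass (adjusted p = 0.17), nor did the full day (-0.27 ± 0.10, adjusted p = 0.080). With all 12 arrays both passed, at -0.52 (adjusted p = 0.043) and -0.59 (adjusted p = 0.012), and the full day also passed without GD9.5 replicate 4 (-0.35, adjusted p = 0.011) and with repeated quantile normalization (-0.35, adjusted p = 0.017). Ephb3, which takes part with Ephb2 in midline and gut development, read 4.58 and 4.56 at GD8.5, 4.35, 4.47, 4.39 and 4.42 at GD9.0, and 4.38, 4.42, 4.40 and 4.22 at GD9.5. It was slightly higher on these 2 GD8.5 arrays, replicates 3 and 4, than at both later stages. On replicates 1 and 2 its percentiles within the array were 66.9 and 68.6. Those lay below the 71.5 to 72.7 of GD9.0 and the 69.8 to 71.8 of GD9.5. The full-day change by limma, over the log2 arrays, was -0.22 ± 0.07 (adjusted p = 0.054). That change passed with both gene-level fits (adjusted p = 0.038 and 0.029), with probe sets above background only (0.032), with repeated quantile normalization (0.032) and with array weights (0.041), and had the opposite sign with 12 arrays (0.08). The second-interval changes of Ephb1 and Ephb3 were -0.02 and -0.05, with 95% intervals of ± 0.18 and ± 0.13.

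**Figure D3:**
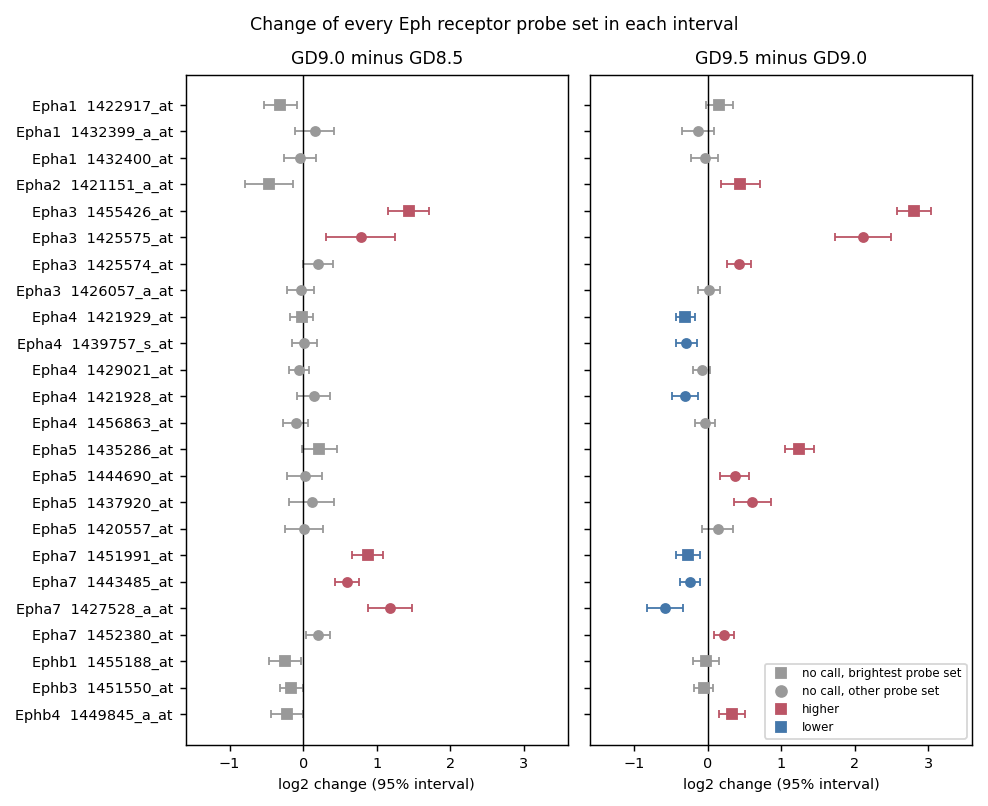
Log2 change of all 24 Eph receptor probe sets in each interval, with 95% intervals from limma; squares are brightest probe sets and colours mark calls at an adjusted p under 0.05. Calls in the first interval are limited to Epha3 and Epha7, and the second holds 9 rises and 6 falls.

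The array also held 4 Eph receptors that were not chosen. Epha6 (stage means 1.04, 1.15 and 1.07) and Ephb6 (1.40, 1.32 and 1.40) lay under the background at every stage. Epha8 (1.68, 1.65 and 1.58) and Epha10 (2.10, 2.06 and 2.19) lay just above it. By limma 0 of these 4 passed in either interval, and 0 had an unadjusted p under 0.05.

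All 8 ephrin genes were measured, 2 rose and 2 fell in the first interval, and 3 rose and 0 fell in the second by limma, where 0 were lower at an unadjusted p under 0.05. The shares over all genes were 5.97% higher and 6.02% lower, then 13.3% and 9.44%. The median log2 change of the ephrins was -0.16 and then 0.19. Efna2 rose throughout, from 5.33 ± 0.10 (SD, n = 2) to 6.10 ± 0.04 (n = 4) and 6.80 ± 0.09 (n = 4), with log2 changes of 0.78 ± 0.08 and 0.70 ± 0.06 SE. Efnb3 rose from 4.82 to 5.54 and 5.74 (0.72 ± 0.07 and 0.20 ± 0.06), and Efnb1 rose in the second interval from 4.62 to 5.18 (0.57 ± 0.08). Efna1 (-0.66 ± 0.19, adjusted p = 0.045) and Efnb2, the vascular partner of Ephb4 (-0.33 ± 0.08, adjusted p = 0.015), fell in the first interval. Efna5, a ligand of Epha3 and Epha7, stood at 6.45, 6.62 and 6.51, Efna4 at 4.55, 4.36 and 4.33 and Efna3 at 1.53, 1.35 and 1.52, none with a call in either interval.

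**Figure D4:**
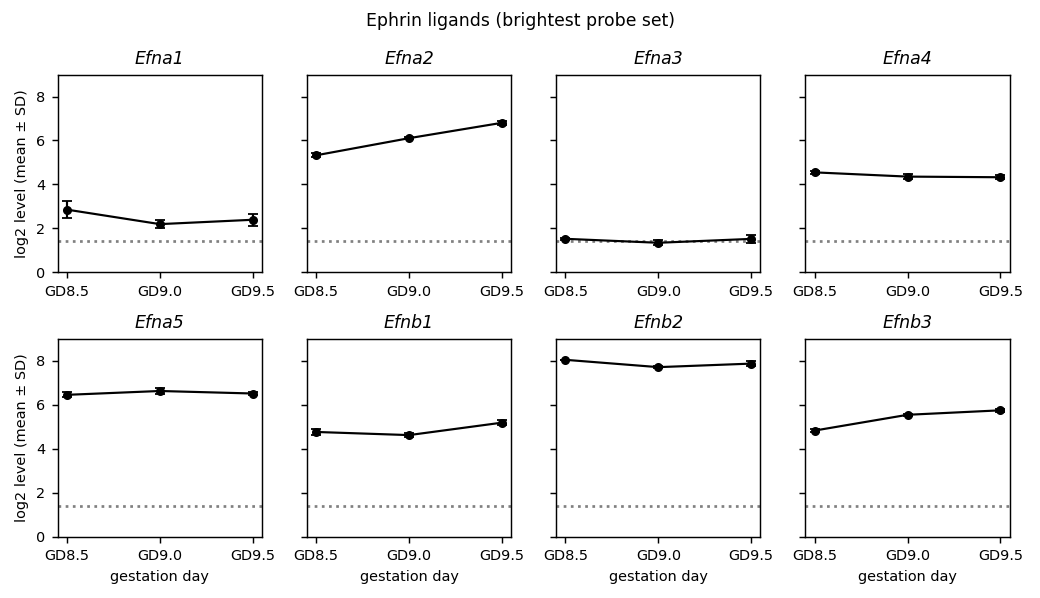
Stage means and SD of the brightest probe set of each ephrin gene on the log2 scale (n = 2, 4 and 4 arrays), with the background as a dotted line. Efna2 climbs from 5.33 to 6.80, while Efna5 stays between 6.45 and 6.62.

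Of 41 genes listed as signalling partners of Eph receptors, 1 rose and 4 fell in the first interval, and 10 rose and 1 fell in the second. Over all genes 5.97% rose and 6.02% fell in the first, and 13.3% and 9.44% in the second. Their median log2 change was -0.03 and 0.10. Chn1, a Rac GTPase-activating protein that acts under Epha4, was the one that rose first (0.42 ± 0.08 SE), and the adaptor Grb7 (-0.77 ± 0.13), the exchange factor Kalrn (-0.63 ± 0.11) and the Rac exchange factor Tiam1 (-0.25 ± 0.07) were among those that fell. In the second interval the Eph-directed phosphatase Ptpro (0.63 ± 0.14), the kinase Src (0.61 ± 0.10) and Spsb4, a SOCS box protein (0.47 ± 0.08), had the largest rises, and the adaptor Nck1 fell (-0.38 ± 0.06).

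Regional transcription factors and signals of the neural tube, some of which control Eph genes, moved both ways. Of 25 listed 20 were measured, with 4 higher and 7 lower in the first interval and 4 higher and 3 lower in the second, beside 5.97% and 6.02%, then 13.3% and 9.44%, of all genes. Egr2, the factor of hindbrain segments 3 and 5 that is known to activate Epha4, fell from 4.20 to 1.90 and then to 0.98, under the background, with a log2 change of -2.30 ± 0.09 SE in the first interval and a level at least 1.41-fold lower after the second (fitted change -0.92 ± 0.08). Epha4 over the same stages was at 5.87, 5.86 and 5.55. Gbx2 (-1.73 ± 0.12) and Hoxb1 (-1.51 ± 0.15) also fell in the first interval, and the midbrain and forebrain factors En2 (1.09 ± 0.08) and Emx2 (1.44 ± 0.11) rose. Six3, a forebrain factor, fell in both intervals (-0.38 ± 0.09 and -0.40 ± 0.07).

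The genes most like a receptor were taken for Epha3 and Epha5, the 2 receptors whose stage means spanned at least 1 on the log2 scale, among 771 genes above the background with such a span. For Epha3 they were Map1b (Pearson r = 0.995), Gm715 (0.994) and Igdcc4 (0.994) over 10 arrays. For Epha5 they were Id4 (0.991), Kank4 (0.991) and Nefl (0.991). The 10 points fall in 3 stages and share their arrays and normalization, so these values mostly describe the order of the stages. Map1b went from 7.08 to 7.51 and 8.30, and Id4 from 4.82 to 5.34 and 8.31.

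The 2 linear GD8.5 arrays can be set beside the others by rank within each array. The brightest Epha3 probe set stood at percentiles 21.4 and 43.8 of single-gene probe sets on GD8.5 replicates 1 and 2, against 10.7 to 33.9 on the log2 arrays of that stage, 55.4 to 59.3 at GD9.0 and 79.8 to 81.4 at GD9.5. That of Epha7 stood at 89.3 and 88.3, above the 85.0 to 86.5 of the other GD8.5 arrays. Both values lay below the 90.1 to 92.0 of GD9.0. They were also below the 89.4 to 89.95 of GD9.5, the value of 89.3 only just. Epha4 stood at 82.7 and 82.6, against 83.9 on both other GD8.5 arrays. Ephb4 stood at 60.2 and 40.9, where the other 10 arrays lay between 61.7 and 66.4.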

How the data were processed

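Values of 12 arrays were deposited as 1 table. The authors deposited log2 values for 10 arrays and linear intensity values for GD8.5 replicates 1 and 2. Expression Console 1.2.1 from Affymetrix, RMA and GCRMA are listed in the submitters' processing notes, which do not state the tool behind each column. The base was taken as 2 because values above 6 had a slope of 0.994 on the log2 of the linear arrays. The sorted log2 arrays differed by at most 0.27, so their distributions were close, and whether they had been normalized together was not tested.

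Of 45101 probe sets, 34945 named 1 gene in the platform annotation (18193 genes), 932 several and 9160 none, and 64 controls were left out; 34741 matched the reference by gene ID. Every one of the 34945 entered 1 model in limma (version 3.58.1, R 4.3.3) that estimates each stage's mean from the 10 log2 arrays (7 residual degrees of freedom, prior 4.37), with Benjamini-Hochberg adjustment over all of them; a call is an adjusted p under 0.05. The fit was tested on simulated data. A gene's brightest probe set has the highest mean, and a called change from or to a mean at or under the background is given as a bound with its fitted value. Per-array values are given for all 9 receptors, stage means for the other Eph receptors and ephrins, up to 3 rises and 3 falls per other list and interval, and the 3 genes of highest correlation.

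The members and lists were chosen with earlier results of these data known, including the scale of the 2 linear arrays. Same-numbered arrays of different stages correlated between -0.04 and 0.12 in their deviations from stage means. Arrays of different number and stage correlated between -0.137 and 0.125, so the numbers were not taken to pair arrays. The 2 GD8.5 log2 arrays deviate from their mean by equal and opposite amounts, so pairs with them say little. The p-values measure the spread between these arrays. Alternatives covered the array set, probe set choice, filter, normalization, spread, array weights, a replicate block and leaving out each array.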

Additional observations from a re-analysis of the deposited data

Results flagged for a closer look

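The change from GD9.0 to GD9.5 differed from that of GD8.5 to GD9.0 for 5 receptors by the contrast of the 2 intervals in limma (adjusted p under 0.05). On the log2 scale the second change minus the first was 1.38 for Epha3, 1.03 for Epha5, 0.91 for Epha2 and 0.55 for Ephb4, and -1.14 for Epha7. The Epha3 difference may be smaller than fitted, because its GD8.5 mean lay under the background. Of all brightest probe sets, 6.37% had a second change above the first, with sign counted, and 3.90% had one below it. The Ephb4 difference lost its call when any array other than GD9.0 replicate 2 or GD9.5 replicate 2 was left out (0.46 to 0.63 over all arrays left out), and had the opposite sign with all 12 arrays (-0.0849, adjusted p = 0.96). With 12 arrays the calls of Epha5 (1.04) and Epha7 (-0.90) were kept.

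In 3 of 48 sets of 4 arrays, 1 array lay far from the other 3, where chance gives about 1 in 20. The gap to the nearest array, as a share of the range, was 0.866 for Epha1 probe set 1432400_at and 0.917 for Epha7 probe set 1443485_at, both with GD9.5 replicate 1 the highest, and 0.843 for Epha4 probe set 1456863_at with GD9.5 replicate 3 the lowest.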

How the results depend on the processing

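Of 820 probe set values under alternatives other than leaving out an array, 21 lost a call, 12 gained one, 1 reversed and 786 kept their side of the threshold, among them 20 uncalled values of opposite sign. Of 960 values with 1 array left out, 46 lost a call, 4 gained one and 910 kept their side, with 34 uncalled values of opposite sign. The reversal was the Ephb4 difference between intervals with all 12 arrays after log2 and quantile normalization (-0.0849). The 12 arrays gave 6 probe sets higher, and 1 receptor and 1 probe set lower, in the first interval. In the second they gave 2 receptors and 5 probe sets higher, and 1 receptor and 4 probe sets lower. Over the full day they gave 2 receptors and 8 probe sets higher, and 2 receptors and 4 probe sets lower. They gave 1 receptor and 1 probe set with a second change above the first. A spread with intensity trend and robust fit gave 1 receptor and 1 probe set lower in the first interval. Over the full day 2 receptors were lower with gene-level fits (brightest or mean of probe sets), with probe sets above background only and with array weights. Repeated quantile normalization gave 3 receptors and 5 probe sets lower there, and 1 probe set was lower without probe sets of the _s_at and _x_at kinds. The cause of these shifts was not tested.

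Same-numbered arrays of different stages correlated from -0.0379 to 0.12, and those of different number from -0.137 to 0.125. Of 10 arrays 3 correlated best with their own number. With the replicate number as a block, 1 receptor was lower in the second interval and 1 probe set was lower over the full day. In that fit 2 receptors and 2 probe sets had a second change above the first. Other counts of receptors and probe sets stayed within 1 of those in the main fit. Leaving out single arrays gave 4 to 5 probe sets higher in the first interval. It gave 0 to 1 receptors and 0 to 1 probe sets lower there. The second interval had 3 to 4 receptors and 7 to 9 probe sets higher. In it 1 to 2 receptors and 4 to 6 probe sets were lower. Over the full day 7 to 10 probe sets were higher, and 0 to 2 receptors and 0 to 3 probe sets lower. The second change lay above the first in 2 to 4 receptors and 2 to 5 probe sets. It lay below the first in 3 to 4 probe sets. Nearness to background limits Epha1 and several Epha3 and Epha5 probe sets.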
